A study of Mus musculus with 20 samples.

Results

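The genes described here are the 8 desaturases and elongases Fads1, Fads2, Fads3, Elovl1, Elovl2, Elovl4, Elovl5 and Elovl7, which act mainly on long-chain and polyunsaturated fatty acids (PUFA). They were chosen by name, not by their values, and are 8 of 37074 gene names on the array. They are read by 19 of its 56605 probes. Of these, 18 passed the filter on dim probes, at least 1 for each gene. Visceral adipose tissue (VAT) of the epididymal area was taken from 20 male C57bl/6J mice, each the third generation (F3) of a supplemented lineage, and each mouse has 1 Agilent 1-colour array. Only RNA above a set integrity was hybridised. The Ref group (6 mice) came from a lineage given high-oleic sunflower oil and was fed a low-fat diet for 17 weeks. The HFoleic group (6 mice) came from the same control lineage and was fed a high-fat, high-sucrose diet for the same time. The HFepa group (8 mice) received that obesogenic diet and came from a lineage given fish oil rich in eicosapentaenoic acid (EPA). All 3 groups thus carry an oil supplement over generations, none was unsupplemented, and no EPA lineage on the low-fat diet was studied here, so the diet and the lineage are both changed in HFepa vs. Ref. HFoleic vs. Ref and HFepa vs. Ref share the Ref mice. Nothing in the sources used here says how many litters the mice came from.

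Mammals obtain the PUFA linoleic acid and alpha-linolenic acid from the diet and convert them in alternating steps. FADS2 inserts the first new double bond, and ELOVL5 and ELOVL2 lengthen the chain. FADS1 inserts a further double bond that gives arachidonic acid in the n-6 series and EPA in the n-3 series. ELOVL2 and FADS2 act again towards docosahexaenoic acid. FADS3, the third gene of the cluster, is known for desaturation of sphingoid bases. ELOVL1 and ELOVL7 elongate mainly saturated and monounsaturated very long and long acyl chains, and ELOVL4 makes the ultra-long chains of retina, skin and testis. Dietary PUFA are known to lower transcription of the desaturase genes in liver.

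Expression is given as the log2 of the median spot intensity, quantile-normalized over the 20 arrays, so 1 unit is a doubling. Each gene is represented by its probe with the highest mean, and levels are compared between mice and never between probes. Differences were tested with limma, a gene is called changed at an adjusted p under 0.05 over all 39390 tested probes, and values after ± are SD. In bulk tissue, fewer cells of a type and less RNA per cell cannot be told apart.

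Fads1, Fads2 and Fads3 lie side by side on mouse chromosome 19. Fads1 is read by 3 probes along the + strand and Fads2 by 5 probes on the - strand. The pair of probe sequences below is shown because these neighbouring desaturases changed by different amounts: the Fads1 probe nearest the 5′ end (mm9, chr19:10257644-10257703, NM_146094) and the brightest Fads2 probe (NM_019699), whose 60 bases span 431 bases of the genome (mm9, chr19:10138750-10139180). Both are in lower case throughout because no part of a probe is singled out. The printed Fads1 probe is the dimmest of its 3. The differences between the genes were tested with the brightest Fads1 probe, which is not printed. The files give no exon or UTR annotation for the probes.
Fads1 probe: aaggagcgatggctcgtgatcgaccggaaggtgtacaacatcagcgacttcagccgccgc
Fads2 probe: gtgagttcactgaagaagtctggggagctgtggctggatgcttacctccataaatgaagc

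Promoters are shown for Elovl1, the called elongase, and for Fads2 and Fads3, the neighbours of Fads1. RefSeq sequences (build GRCm38.p6) were found for 7 of the 8 members, with 9 starts in all. Each run is the 250 bases before a gene start, 5′ to 3′ on the strand of the gene. Capitals mark matches on either strand to CCAAT (the NF-Y motif), GGGCGG (the GC box of Sp1-type factors) and CACGTG (an E-box). The windows are chr19:10101504-10101753 (-) for Fads2, chr19:10041298-10041547 (+) for Fads3, and chr4:118427843-118428092 (+) and chr4:118429451-118429700 (+) for the starts of Elovl1.
Fads2: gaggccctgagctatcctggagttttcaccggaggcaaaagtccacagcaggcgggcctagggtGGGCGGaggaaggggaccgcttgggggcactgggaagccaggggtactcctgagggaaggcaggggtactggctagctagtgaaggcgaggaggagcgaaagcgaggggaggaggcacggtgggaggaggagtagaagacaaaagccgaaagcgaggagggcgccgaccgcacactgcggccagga
Fads3: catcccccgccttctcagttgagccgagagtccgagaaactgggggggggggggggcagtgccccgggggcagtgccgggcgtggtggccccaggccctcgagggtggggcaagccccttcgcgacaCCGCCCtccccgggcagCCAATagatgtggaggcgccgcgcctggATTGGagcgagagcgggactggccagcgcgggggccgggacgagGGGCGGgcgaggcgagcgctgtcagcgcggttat
Elovl1, first start: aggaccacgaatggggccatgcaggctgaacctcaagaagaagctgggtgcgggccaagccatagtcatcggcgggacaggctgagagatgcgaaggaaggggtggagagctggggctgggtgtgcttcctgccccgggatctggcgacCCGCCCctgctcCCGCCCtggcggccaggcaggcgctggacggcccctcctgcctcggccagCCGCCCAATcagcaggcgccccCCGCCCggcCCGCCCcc
Elovl1, other start: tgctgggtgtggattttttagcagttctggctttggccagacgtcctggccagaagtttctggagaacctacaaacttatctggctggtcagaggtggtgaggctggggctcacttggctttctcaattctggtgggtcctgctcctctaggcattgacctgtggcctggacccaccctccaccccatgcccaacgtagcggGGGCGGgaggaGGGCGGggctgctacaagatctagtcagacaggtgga

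GGGCGG was found in 7 of the 9 promoters of members and in 32.74% of 32851 mouse promoter windows of the same length. CCAAT was found in 3 of 9 (Fads3, Elovl1 and Elovl5) and in 33.85% of all. At the first Elovl1 start the CCAAT match overlaps a GC box, and both are marked as 1 run. CACGTG was found in 1 of 9 (Elovl5) and in 6.02% of all, and the sterol regulatory element TCACNCCAC in 0 of 9 and in 1.05%. A match describes letters only, and says nothing of binding in VAT.

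All arrays read as adipose tissue, with Adipoq between 17.75 and 18.26 in every mouse, but markers of other tissues and cells read at unequal levels. Whether testis, epididymis or liver tissue was present was not tested. The mean of 7 tested testis markers (Prm1, Prm2 and others) was 8.13 to 8.92 in 4 mice, Ref mice 3 and 6, HFoleic mouse 5 and HFepa mouse 4, and at most 7.40 in the other 16. The mean of 5 tested epididymis markers was highest in HFepa mouse 2 (7.80). Next came Ref mice 3 (7.54) and 6 (7.12) and HFoleic mouse 5 (6.85), which are also mice with testis markers. Of 12 epididymis markers on the array, 2 to 8 were well above background in a mouse, with 8 in HFepa mouse 2. This list mean thus rests on few markers that were read. The mean of 8 hepatocyte markers (Alb, Apoa1 and others) ranged from 9.06 to 12.66, highest in HFoleic mouse 6. Alb itself read 10.93 to 14.94 and was above background in every mouse, so a list mean alone does not show liver cells. The mean of 10 macrophage markers (Adgre1, Cd68 and others) was 11.20 to 11.62 in Ref, 11.99 to 12.99 in HFoleic and 11.09 to 12.95 in HFepa. The mean of 8 lipid-associated macrophage markers (Trem2, Cd9 and others) was 8.17 to 9.54 in Ref and 11.30 to 13.21 in HFoleic. In HFepa it was 13.67 and 12.74 in mice 1 and 6, and 8.77 to 10.90 in the other 6. Of 10 adipocyte markers (Adipoq, Plin1 and others) 3 were called lower in HFoleic, with means of 16.13 to 16.82 in HFoleic, 16.63 to 16.94 in Ref and 16.27 to 16.79 in HFepa. In HFoleic vs. Ref 7 of 10 macrophage and 8 of 8 lipid-associated macrophage markers were called higher. So were 4 of 8 fibroblast and progenitor and 1 of 5 T cell markers. Of the hepatocyte markers 1 of 8 was called lower, and 2 of 7 testis markers were called in opposite directions. Among all genes 31.8% were called in that comparison, 15.2% higher and 16.7% lower, and no list was tested against this share. The 3 of 10 called adipocyte markers are near it. Limma called none of the endothelial, mesothelial, B cell and epididymis markers there, where 3 of them in all had an unadjusted p under 0.05, and no marker of any list in the other comparisons, although 7 of 8 lipid-associated macrophage markers had an unadjusted p under 0.05 in each of these.

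Of the 8 members, 2 were called in HFoleic vs. Ref, Fads1 lower and Elovl1 higher. Among all 25618 genes, each by its brightest probe, 31.8% were called, 15.2% higher and 16.7% lower, so the share of members is near the background. At an unadjusted p under 0.05 there were 3 members, against 42.2% of all genes. In HFepa vs. Ref limma called 0 of 8, with 3 at an unadjusted p under 0.05, where 2.46% of all genes were called and 21.6% had an unadjusted p under 0.05. In HFepa vs. HFoleic limma called 0 of 8, with 1 at an unadjusted p under 0.05, and called 0% of all genes, 20.8% of which had an unadjusted p under 0.05. The median log2 change of the members was 0.05, 0.09 and 0.08 in the 3 comparisons in this order, and that of all genes was -0.04, -0.02 and 0.01.

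**Figure D1:**
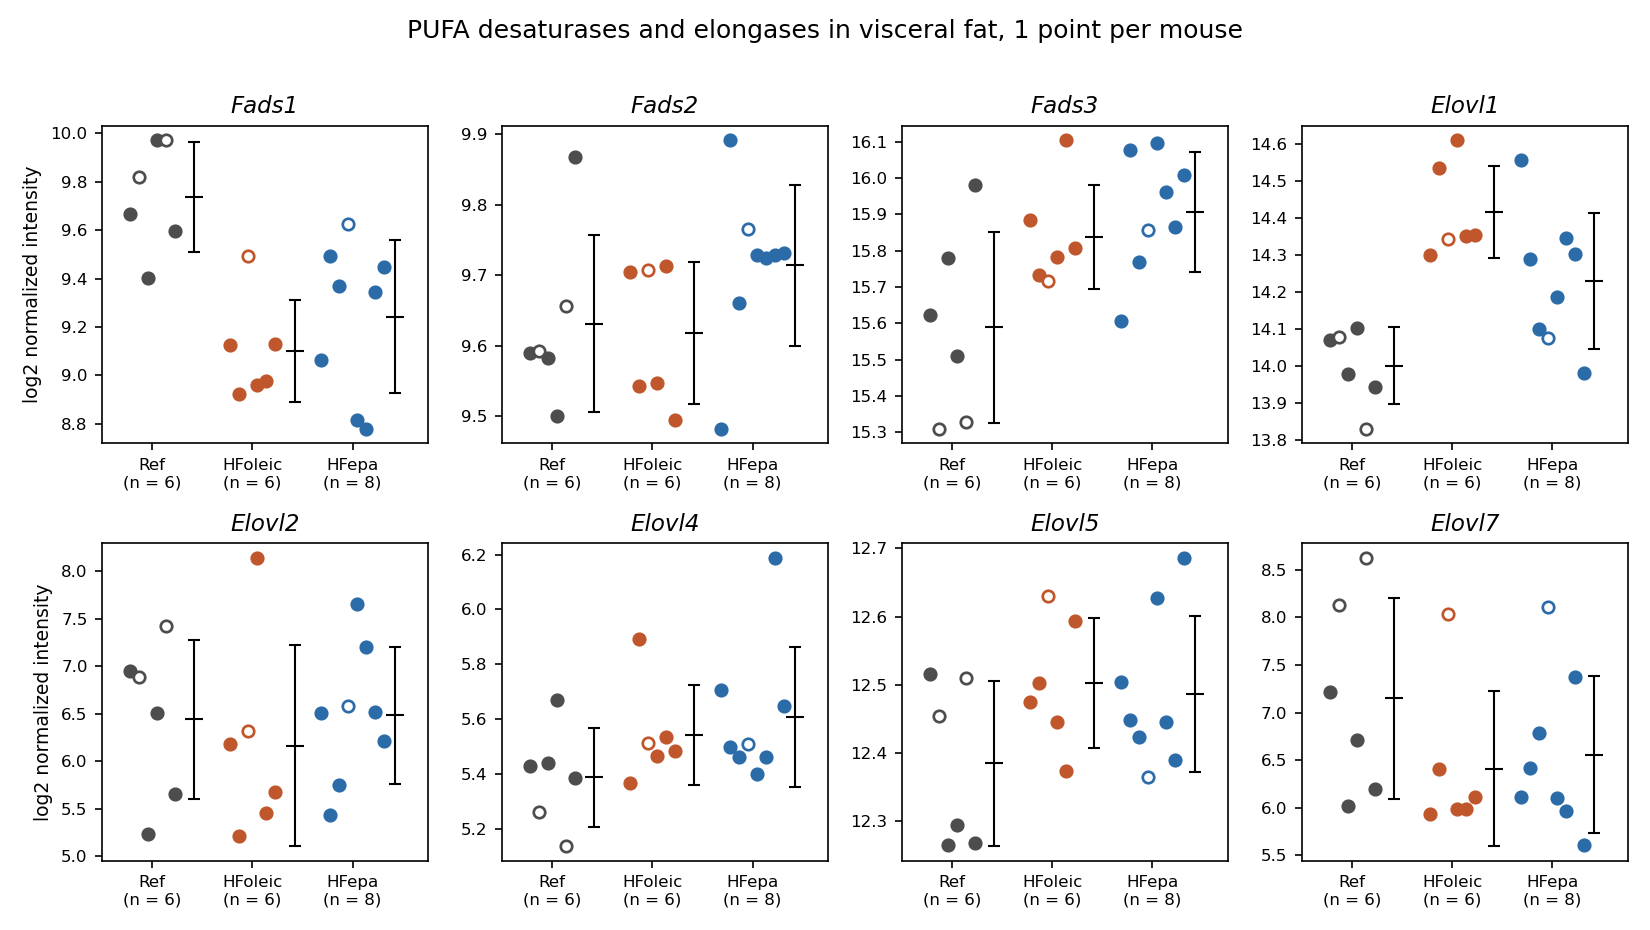
Log2 normalized intensity of each member (brightest probe) in each mouse by group, with the mean and SD beside the points. Open points are the 4 mice with the highest testis markers. Elovl1 of Ref and HFoleic mice does not overlap, Fads1 is lower in HFoleic except in mouse 5, and Elovl7 is highest in the 4 open points.

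Fads1, the delta-5 desaturase that completes arachidonic acid and EPA, fell in HFoleic. Its log2 intensity was 9.40 at the lowest, 9.74 at the median and 9.97 at the highest in Ref mice, against 8.92, 9.05 and 9.49 in HFoleic mice and 8.78, 9.36 and 9.63 in HFepa mice. HFoleic mouse 5 was the only mouse of its group inside the Ref range, and the other 5 lay below every Ref mouse. Of the HFepa mice, 5 lay below every Ref mouse and 3 within the Ref range.

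The mean was 9.74 ± 0.23 in Ref, 9.10 ± 0.21 in HFoleic and 9.24 ± 0.32 in HFepa. HFoleic vs. Ref was -0.64 (SE 0.15), a 1.55-fold lower level, with a limma adjusted p of 0.00307. HFepa vs. Ref was -0.49, with an adjusted p of 0.0570. The order of the means was Ref, HFepa, HFoleic, and the neighbours HFepa and HFoleic did not differ beyond their spread (0.14, 95% interval -0.14 to 0.43, adjusted p 0.593). HFepa vs. Ref passed the threshold when HFepa mouse 3, HFepa mouse 4, HFepa mouse 8 or Ref mouse 7 was left out (adjusted p 0.0394, 0.0409, 0.0475 and 0.0478). Without HFepa mice 1 and 6 it was -0.39 (adjusted p 0.223), and without the 4 mice with testis markers -0.47 (adjusted p 0.187). The 3 slides held 3, 1 and 2 HFoleic mice, and 2 Ref mice each. Within them the HFoleic difference was -0.67, -0.86 and -0.45, where -0.86 rests on 1 HFoleic mouse. Over all slides the HFoleic difference was called in all 35 other settings tried, at -0.71 to -0.49.

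The probe nearest the 5′ end of Fads1, whose sequence is given above, changed by -0.47 in HFoleic vs. Ref (limma adjusted p 0.00237), again with 5 of 6 mice below every Ref mouse. In HFepa compared with Ref it changed by -0.30 (limma adjusted p 0.0948). This probe read close to background, with means of 6.11 in Ref and 5.64 in HFoleic, and HFoleic mouse 7 (5.35) was not well above it. Of the 4 mice highest on this probe, 3 were among the 4 with testis markers. The Fads1 probe between the other two, made to the cDNA AK080706, changed by -0.35 and was not called (adjusted p 0.0928). Its highest values, 8.38 to 8.92, were those of the 4 mice with the highest testis markers, and the other 16 mice lay between 7.78 and 8.34. The part of testis RNA in either of these dimmer probes was not tested.

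Fads2, the delta-6 desaturase that starts the pathway, had its lowest, median and highest values at 9.50, 9.59 and 9.87 in Ref, 9.49, 9.63 and 9.71 in HFoleic, and 9.48, 9.73 and 9.89 in HFepa. The 3 groups overlapped throughout, although 6 of 8 HFepa mice lay above every HFoleic mouse. The difference of HFoleic vs. Ref was -0.01 with a 95% interval from -0.16 to 0.13, and HFepa vs. Ref was 0.08 with an interval from -0.05 to 0.22. HFepa vs. HFoleic was 0.10 (limma adjusted p 0.429). The means, 9.63 in Ref, 9.62 in HFoleic and 9.71 in HFepa, have no order beyond their spread.

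The 4 dimmer Fads2 probes gave no call either, but 3 of them, made to the cDNAs AK031337, AK215784 and AK192544, were highest in the 4 mice with testis markers. There they read 7.64 to 8.39, 7.55 to 8.15 and 6.94 to 7.30. In the other 16 mice they read 6.24 to 7.28, 6.21 to 7.07 and 6.16 to 6.66, so the ranges did not meet. The brightest Fads2 probe, printed above, did not separate these mice.

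Fads3, the sphingoid-base desaturase, was not called, although its values in both high-fat groups lay mostly above those of Ref. Its lowest, median and highest values were 15.31, 15.57 and 15.98 in Ref, 15.72, 15.79 and 16.10 in HFoleic, and 15.61, 15.91 and 16.10 in HFepa. Ref mouse 7, at 15.98, lay among the high-fat mice, while 4 of the Ref mice were at most 15.62. HFoleic vs. Ref was 0.25 (SE 0.11, limma adjusted p 0.0894), HFepa vs. Ref was 0.32 (SE 0.10, adjusted p 0.0933), and HFepa vs. HFoleic was 0.07 (adjusted p 0.761). Without Ref mouse 7 they were 0.33 (adjusted p 0.0185) and 0.40 (adjusted p 0.0284), both past the threshold. On the log2 values of the authors they were 0.29 (adjusted p 0.0157) and 0.33 (adjusted p 0.0402). The dimmer Fads3 probe (AK162624) gave 0.27 and 0.29 (adjusted p 0.168 and 0.241). Without the 4 mice with testis markers, which include the lowest 2 Ref mice, the differences were 0.14 and 0.19 (adjusted p 0.421 and 0.404).

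The genes of the cluster were set against each other within each mouse, which cancels any shift common to an array. Fads1 minus Fads2 was lower by 0.62 in HFoleic than in Ref and by 0.58 in HFepa than in Ref on the log2 scale (two-sided exact permutation tests, p 0.00433 and 0.00266, adjusted over 12 tests 0.0173 and 0.0160). Fads1 minus Fads3 was lower by 0.89 and by 0.81 (exact permutation p 0.00649 and 0.002, adjusted 0.0195 and 0.0160). The differences of Fads1 from both neighbours stayed past the threshold without the 4 mice with testis markers (adjusted p 0.0238 each) and without HFepa mice 1 and 6 (0.0325 each).

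Fads2 minus Fads3 differed from Ref by -0.26 in HFoleic (exact permutation p 0.0303, adjusted 0.0606) and by -0.23 in HFepa (p 0.00932, adjusted 0.0224). The call in HFepa was lost without Ref mouse 3 (-0.19, adjusted p 0.0578), without Ref mouse 6 (-0.18, adjusted p 0.0615) and without the 4 mice with testis markers (-0.12, adjusted p 0.145), and the difference in HFoleic passed without Ref mouse 4 (-0.31, adjusted p 0.0260) or HFoleic mouse 5 (-0.31, adjusted p 0.0303). None of these differences passed between HFepa and HFoleic, where they were 0.05, 0.07 and 0.03 in the order given (adjusted p 0.811 for each). In all, 5 of 12 differences passed, and 0 of 12 did when each gene was read as the average over its probes.

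**Figure D2:**
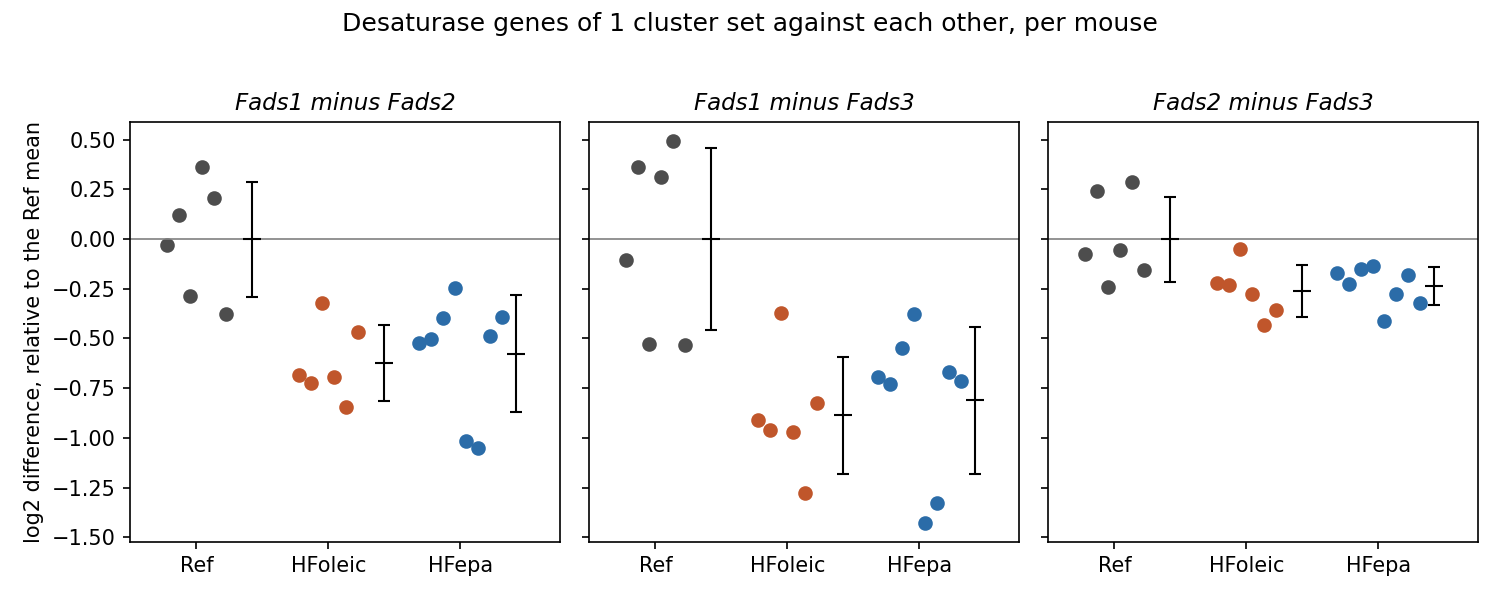
Difference of the log2 intensities of 2 desaturase genes in each mouse, relative to the Ref mean, with the mean and SD of each group beside the points. Fads1 minus Fads2 and Fads1 minus Fads3 lie lower in both high-fat groups than in Ref, by 0.58 to 0.89 on the log2 scale.

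Elovl1, which elongates saturated and monounsaturated acyl chains to the very long chains of sphingolipids, rose in HFoleic. Its lowest, median and highest values were 13.83, 14.02 and 14.10 in Ref, 14.30, 14.35 and 14.61 in HFoleic, and 13.98, 14.24 and 14.56 in HFepa. Every HFoleic mouse lay above every Ref mouse, and 5 of 8 HFepa mice did so too. Of the 8 members, 1 had no overlap between HFoleic and Ref, where 14% of all genes had none. In HFepa vs. Ref and HFepa vs. HFoleic 0 members had none, against 1.04% and 0.355% of all genes.

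The means of Elovl1 were 14.00 ± 0.10 in Ref, 14.41 ± 0.12 in HFoleic and 14.23 ± 0.18 in HFepa. HFoleic vs. Ref was 0.41 (SE 0.09), a 1.33-fold higher level, with a limma adjusted p of 0.00171. HFepa vs. Ref was 0.23 (adjusted p 0.117), and HFepa vs. HFoleic was -0.19 (unadjusted p 0.0319, adjusted p 0.201). The order HFoleic, HFepa, Ref therefore has neighbours that were not separated after adjustment. A dimmer Elovl1 probe on the same transcript (NM_001039176) gave 0.44 in HFoleic vs. Ref (adjusted p 0.00479), also without overlap, and 0.21 and -0.23 in the other comparisons (adjusted p 0.241 and 0.208). The other Elovl1 probe was well above background on 0 arrays and was not tested. Within the 3 slides the HFoleic difference was 0.35, 0.51 and 0.44, where 0.51 rests on 1 HFoleic mouse. Over all slides it was called in all 35 other settings, at 0.38 to 0.46.

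Elovl1 varied with the macrophage markers within groups. Each member was set against each of 11 marker lists, a family of 88 relations chosen after seeing the data, of which 5 passed by Pearson, 3 by Spearman and 2 by both measures. Its highest HFepa values, 14.56 and 14.35, were those of mice 1 and 6, which also had the highest macrophage and lipid-associated macrophage levels of that group. Over all 20 mice the deviations of Elovl1 from the group means correlated with those of the macrophage list at Pearson r 0.86 and Spearman rho 0.81 (permutation p 1e-05, the smallest these permutations can give, and 0.00013, adjusted over 88 relations of members and lists 0.00088 and 0.00572). Without HFepa mice 1 and 8, the farthest on that list, r was 0.73. The relation to the lipid-associated macrophage list (r 0.72, rho 0.66, permutation p 0.00243 and 0.0045, adjusted 0.0459 and 0.0792) was 0.53 without HFepa mice 1 and 6. When HFepa mice 1 and 6 were left out of the fit, HFepa vs. HFoleic became -0.26 for Elovl1, with a limma adjusted p of 0.0239. Under that setting 4063 of all genes passed, none of which had passed with all mice. The 2 mice were chosen after seeing the data and hold the highest Elovl1 values of HFepa. Leaving them out lowers the HFepa mean by choice, so this pass is no test of a difference between lineages.

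Elovl1 also correlated with the adipocyte list, at r -0.66 and rho -0.60 (permutation p 0.00261 and 0.00959, adjusted 0.0459 and 0.134), and at -0.53 without HFoleic mouse 1 and HFepa mouse 1. The genes most like it by these deviations, among 21736 genes above background on all arrays, were Ehd4 (r 0.93), Tubb6 (r 0.91) and Ms4a7 (r 0.90), the last a gene known from macrophages. The genes most like Fads1 were Naa35 (r 0.89), Abcc8 (r 0.85) and Gm32755 (r 0.84). These were picked as the highest of many, and carry no test. The part of macrophages in the Elovl1 difference between groups was not tested.

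**Figure D3:**
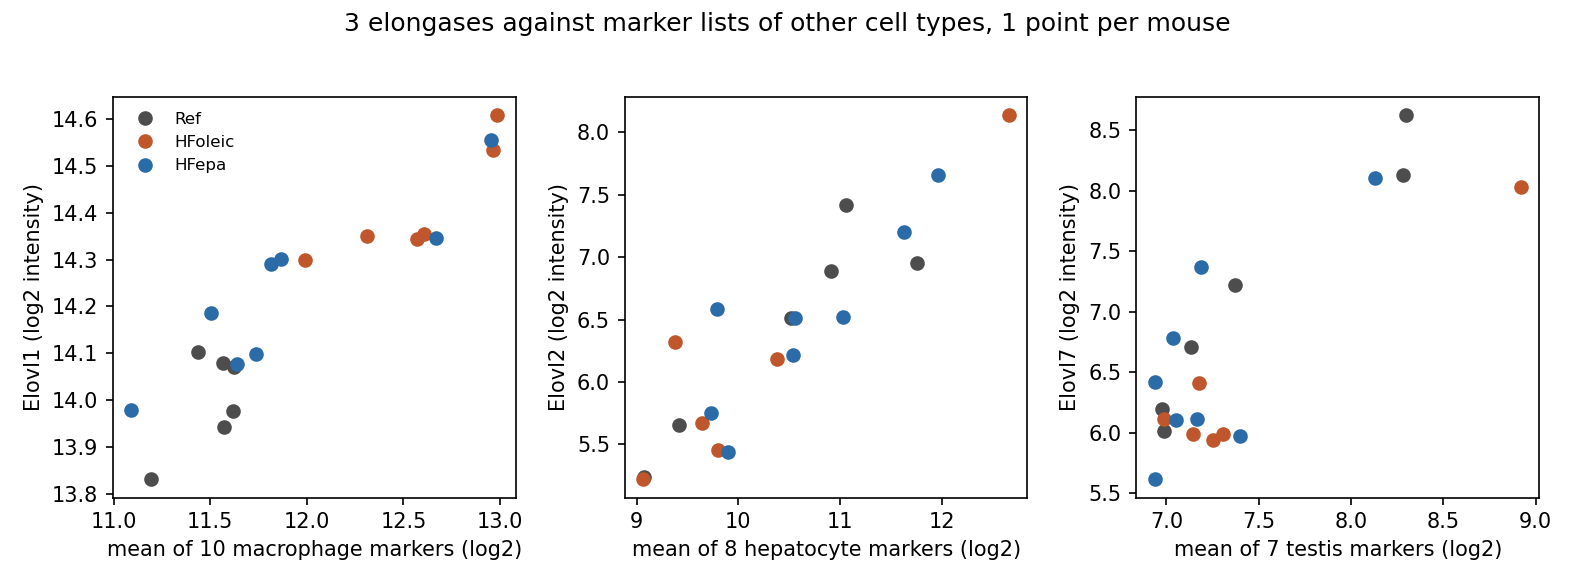
Log2 intensity of Elovl1, Elovl2 and Elovl7 in each mouse against the mean log2 level of the macrophage, hepatocyte and testis marker lists. Elovl1 is higher in mice with more macrophage marker signal, Elovl2 in mice with more hepatocyte marker signal, and Elovl7 lies above 8 in the 4 mice with testis markers.

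Elovl5, the elongase of PUFA of medium length in the pathway, was close in all groups. Its lowest, median and highest values were 12.27, 12.37 and 12.52 in Ref, 12.37, 12.49 and 12.63 in HFoleic, and 12.36, 12.45 and 12.69 in HFepa. The groups overlapped, and no comparison was called. HFoleic vs. Ref was 0.12 (95% interval -0.03 to 0.26), HFepa vs. Ref was 0.10 (-0.03 to 0.24) and HFepa vs. HFoleic was -0.02 (-0.15 to 0.12). The 2 dimmer Elovl5 probes gave differences between -0.12 and 0.14, none called.

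Elovl2, the elongase of the longest steps towards docosahexaenoic acid and a gene known from liver, varied most between mice of 1 group rather than between groups. Its lowest, median and highest values were 5.24, 6.70 and 7.42 in Ref, 5.22, 5.93 and 8.14 in HFoleic, and 5.44, 6.52 and 7.66 in HFepa. It was well above background in 5 of 6 Ref, 4 of 6 HFoleic and 8 of 8 HFepa mice. Between HFoleic and Ref the difference was -0.28 with a 95% interval from -1.24 to 0.69, HFepa vs. Ref was 0.04 and HFepa vs. HFoleic was 0.32 (limma adjusted p 0.692, 0.97 and 0.724).

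The Elovl2 values varied with the hepatocyte markers. HFoleic mouse 6, at 8.14, had the highest hepatocyte list of all mice (12.66), and HFepa mouse 5, at 7.66, the next (11.96). The deviations from the group means correlated at Pearson r 0.91 and Spearman rho 0.85 over 20 mice (permutation p 2e-05 and 0.00011, adjusted over 88 relations 0.00088 and 0.00572), and at 0.83 without those 2 mice. Elovl2 also passed with the testis list by Spearman (permutation test, adjusted p 0.0290) but not by Pearson (0.523), and no coefficient is given because the mice fall apart on that list. The 4 mice with testis markers read 6.32 to 7.42, within the range of the other 16. The part of liver-type or testis RNA in the Elovl2 signal was not tested. Elovl5 minus Elovl2, the pair of PUFA elongases with overlapping substrates, differed between groups by -0.34 to 0.40, and none of the 3 comparisons passed (adjusted p from 0.733 to 0.873, exact permutation tests).

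Elovl4, the elongase of ultra-long chains, was near background. It was well above background in 1 of 6 Ref, 3 of 6 HFoleic and 5 of 8 HFepa mice. Its values ran from 5.14 to 5.67 in Ref (median 5.41), from 5.36 to 5.89 in HFoleic (median 5.5) and from 5.40 to 6.19 in HFepa (median 5.5). The groups overlapped and no comparison was called (differences of 0.16, 0.22 and 0.07, adjusted p 0.354, 0.268 and 0.786), and a difference could hardly be read at this signal.

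Elovl7, an elongase of saturated long chains, had its lowest, median and highest values at 6.02, 6.96 and 8.63 in Ref, 5.94, 6.05 and 8.03 in HFoleic, and 5.61, 6.26 and 8.10 in HFepa. The 4 highest values of all, 8.63 and 8.13 in Ref mice 6 and 3, 8.10 in HFepa mouse 4 and 8.03 in HFoleic mouse 5, belonged to the 4 mice with testis markers. The other 16 mice read 5.61 to 7.37. Between HFoleic and Ref it was -0.74 with a wide 95% interval from -1.74 to 0.26, and HFepa vs. Ref was -0.59 (limma adjusted p 0.261 and 0.486). Without those 4 mice the differences were -0.45 and -0.19, not called. Because the mice fall apart on the testis list, no correlation is given. Of the 4 mice with the highest Elovl7 values, 3 were also among the 4 highest on the epididymis list. The parts of testis and epididymis RNA in the Elovl7 signal were not tested.

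**Figure D4:**
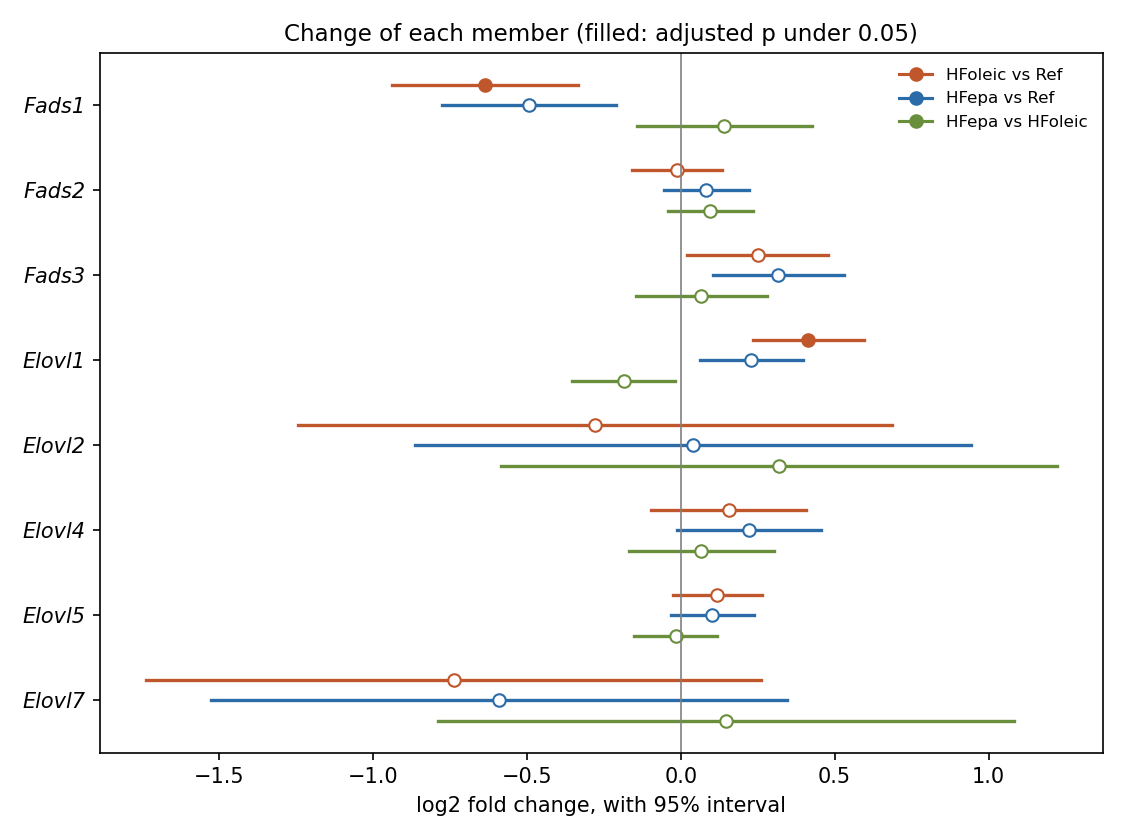
Log2 fold change of each member (brightest probe) in the 3 comparisons, with the 95% interval of the limma fit. Filled points passed an adjusted p of 0.05: Fads1 at -0.64 and Elovl1 at 0.41 in HFoleic vs. Ref. The intervals of Elovl2 and Elovl7 are the widest, and those of Fads2 and Elovl5 lie between -0.16 and 0.26.

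Among the members themselves, 0 of 28 pairs passed the adjusted threshold for a correlation of their deviations over 20 mice, and 4 had an unadjusted permutation p under 0.05. The highest were Fads1 with Elovl7 (r 0.64, rho 0.64, permutation p 0.0037 and 0.00495, adjusted 0.0640 and 0.107; 0.66 without HFepa mice 5 and 6) and Fads2 with Fads3 (r 0.64, rho 0.51, permutation p 0.00457 and 0.0273, adjusted 0.0640 and 0.191). The latter depended on the mice included. Without HFepa mouse 1 and Ref mouse 7, the farthest from the median, r was 0.37, and without the 4 mice with testis markers it was 0.87 and past the threshold. When the mean of all probes was used, 3 pairs passed, Fads1 with Fads2 (0.85), Fads1 with Elovl7 (0.90) and Fads2 with Elovl7 (0.92), which are the genes with probes that separated the mice with testis markers.

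The 58 other genes of the pathway, in 7 lists, gave 57 tested genes. In HFoleic vs. Ref 21 were called (36.8%, against 31.8% of all genes), 13 higher and 8 lower, and without the 4 mice with testis markers 12 were called. In HFepa vs. Ref 1 was called, with 14 at an unadjusted p under 0.05 (21.6% of all genes were), and in HFepa vs. HFoleic limma called 0, with 12 at an unadjusted p under 0.05 (20.8% of all genes were). The counts over all lists are near this background, and no list was tested against it. The median log2 change of the 57 genes was 0.06 in HFoleic vs. Ref, beside -0.04 for all genes. The lists were chosen with results of these data known. Several of the calls named below were lost in some other settings, as given under the dependence on processing.

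Of the 9 other desaturases and elongases, 5 were called in HFoleic vs. Ref. Scd2, a stearoyl-CoA desaturase, rose by 2.12 (limma adjusted p 0.00283), and Degs1, the desaturase that completes ceramide, rose by 0.74 (adjusted p 0.00119). Scd4 fell by 0.36 (adjusted p 0.00110). The other calls, Scd3 and Elovl6, the elongase of palmitate, fell by 0.69 and 0.73 (adjusted p 0.0166 and 0.0203) and are named beyond the rule of 3 genes a list. Of 6 genes for the other steps of the elongation cycle, 3 were called. Hacd4, a dehydratase, rose by 1.39 (adjusted p 0.00130), and Tecr, the reductase of the last step, rose by 0.53 (adjusted p 0.00393), while Hacd2 fell by 0.42 (adjusted p 0.0336). The elongation cycle and the desaturases thus held called genes in both directions.

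The 4 electron donors of the desaturases had 2 calls, Cyb5b at 0.53 (limma adjusted p 0.00972) and the cytochrome b5 reductase Cyb5r3 at 0.32 (adjusted p 0.0260). Of the 4 tested long-chain acyl-CoA synthetases, Acsl5, an acyl-CoA synthetase, rose by 0.45 in HFoleic (adjusted p 0.000533). It was the only pathway gene called in HFepa vs. Ref, at 0.27, with an adjusted p of 0.0497 that was under the threshold in 10 of 35 other settings. In peroxisomal chain shortening, which trims very long chains, 4 of 9 were called. The transporter gene Abcd2 rose by 0.64 (adjusted p 0.00738), and the thiolase and carrier gene Scp2 fell by 0.55 (adjusted p 0.00512). Acox3, an acyl-CoA oxidase named beyond the same rule, rose by 0.31 (adjusted p 0.0400).

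In phospholipid acyl exchange, which places PUFA into membranes and frees them, 3 of 11 were called. Lpcat2 rose by 0.61 (limma adjusted p 0.00604), the arachidonate-releasing phospholipase Pla2g4a rose by 0.72 (adjusted p 0.0160) and Agpat3 fell by 0.37 (adjusted p 0.0445). Of 14 transcriptional regulators, Insig1, which retains SREBP in the endoplasmic reticulum, rose by 1.70 (adjusted p 0.000513), Insig2 fell by 0.76 (adjusted p 0.00219) and the oxysterol receptor gene Nr1h2 fell by 0.16 (adjusted p 0.0259). The remaining 11 regulators were not called.

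**Figure D5:**
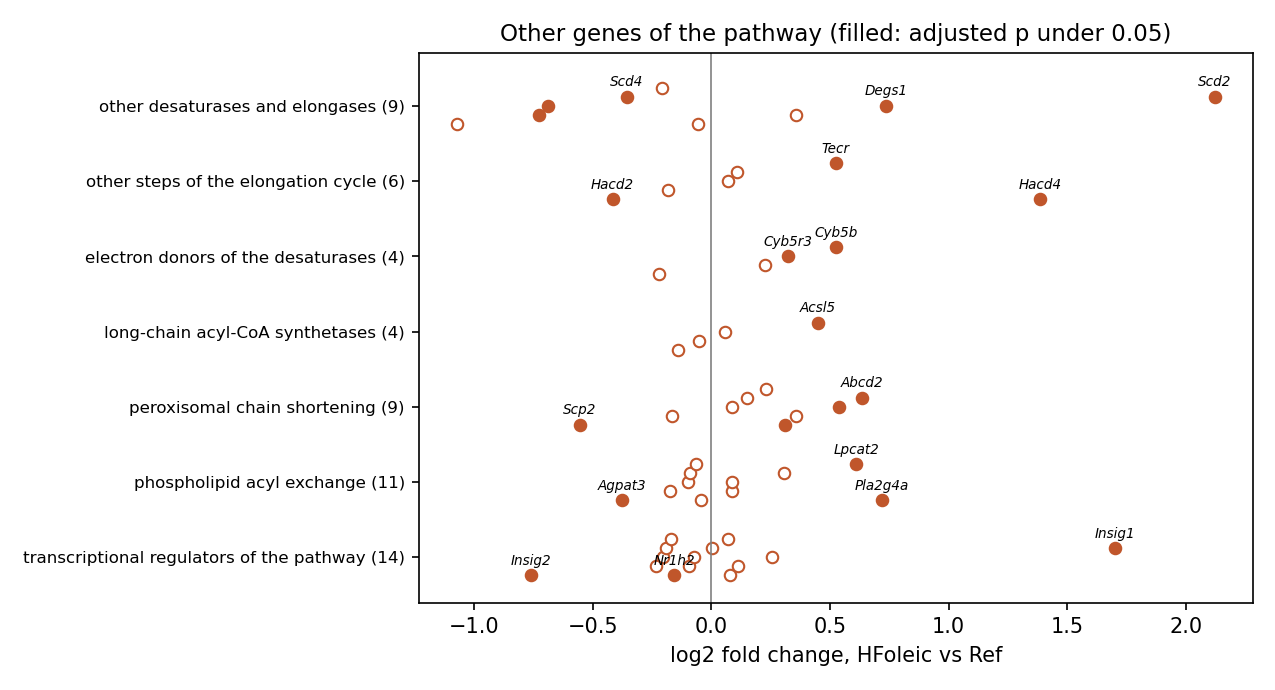
Log2 fold change in HFoleic vs. Ref of the 57 tested genes of 7 pathway lists, 1 point per gene, with the number of genes in brackets. Filled points, 21 in all, passed an adjusted p of 0.05, and most of them are named. Scd2 at 2.12 and Insig1 at 1.70 lie farthest to the right.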

How the data were processed

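Of the Agilent SurePrint G3 Mouse arrays, the deposited files hold spot intensity values that the authors extracted with Agilent Feature Extraction 10.10.1.1 (linear scale, not normalized). The authors also deposited log2 values, filtered and quantile-normalized, which were used only as an alternative. Here, control spots and spots marked as outliers were left out, the log2 median intensity was quantile-normalized, and probes well above background on at least 6 arrays were kept. One mean per group was fitted with lmFit and eBayes (limma 3.58.1, R 4.3.3) to all 20 arrays, with Benjamini-Hochberg adjustment over 39390 probes. The methods of the study also name lmFit and this adjustment. The filter used here, and so the set of probes, is not that of the study. Between 66.1% and 71.9% of spots per array were well above background and 0 were saturated, and the number of arrays limits the precision. Coordinates of probes are mm9, per the file headers, and the promoters are of GRCm38.p6. Correlations used 100000 permutations within groups. Genes named were all members, up to 3 called genes of each pathway list with the smallest p per comparison, the first 2 of each of 11 marker lists, and the 3 genes most like each called member. The members, lists and rules were chosen with earlier results of these data known. The steps were tested on simulated data. The alternatives tried are given under the dependence on processing. Labels do not say whether mice share litters, so p-values measure the spread between these mice. A called gene of the pathway lists is counted but not reported here by name.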

Additional observations from a re-analysis of the deposited data

Results flagged for a closer look

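Within each group the highest and lowest value of all 18 tested probes was set against the spread of its group. In 11 of 54 groups of values 1 mouse stood apart by Dixon's criterion, which chance alone gives in about 1 of 20 independent groups. These groups share mice, and several probes read the same gene, so the count was not tested against that rate.

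HFoleic mouse 5, 1 of the mice with testis markers, was the highest of its group on 5 probes: Fads1 (9.49, next 9.13), Elovl7 (8.03, next 6.41) and the Fads2 probes of AK031337 (7.64), AK215784 (7.85) and AK192544 (7.22). The Fads1 value is the only one of HFoleic that reached the Ref range. Ref mouse 6, also among those mice, was the lowest Ref mouse on the dimmer Elovl1 probe (9.33).

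For Elovl4, HFoleic mouse 4 (5.89) and HFepa mouse 7 (6.19) were high in their groups. On dimmer probes, HFepa mouse 3 was low for Fads3 (13.30), HFepa mouse 1 low for Elovl5 (5.64) and HFoleic mouse 4 high for Elovl5 (5.77).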

How the results depend on the processing

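The counts of calls and the log2 changes were recomputed under 35 other settings (34 for Elovl4), the differences between members under 28 and their correlations under 29, while the relations of members to marker lists were computed once. The settings were other signal, background, normalization and filter choices, the log2 values of the authors, slide and replicate blocks, array weights, a fit of the 2 groups alone, the mean of all probes, each mouse left out, and, chosen after seeing the data, the 4 arrays with testis markers or HFepa mice 1 and 6 left out. No called value changed direction. Fads1 and Elovl1 were called in HFoleic vs. Ref under each of the 35, and Fads3 in addition under 2. Some named pathway genes lost that call in some settings. Their highest limma adjusted p was 0.282 (Nr1h2), 0.148 (Cyb5r3), 0.117 (Agpat3), 0.114 (Cyb5b), 0.0922 (Hacd2), 0.0715 (Pla2g4a), 0.0685 (Abcd2), 0.0611 (Scp2) and 0.0529 (Tecr). Scd2, Degs1, Scd4, Hacd4, Acsl5, Lpcat2, Insig1 and Insig2 stayed under 0.05 in this comparison. Scd3, Elovl6 and Acox3 were not followed singly.

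The count of members called in HFepa vs. Ref went from 0 to 1 with the values of the authors, and from 0 to 2 over the mice left out, with 2 without Ref mouse 7. In HFepa vs. HFoleic it went from 0 to 1 without HFepa mice 1 and 6. The 21 pathway genes called in HFoleic vs. Ref became 12 without the 4 arrays with testis markers. The 1 called in HFepa vs. Ref became 0 with the processed signal, median centring, no filter, the slide block, array weights, an intensity trend, the 2 groups alone, the mean of all probes and both sets of arrays left out, and 0 to 3 with 1 mouse left out (3 without HFepa mouse 3). In HFepa vs. HFoleic 0 pathway genes became 2 with the slide block, 9 with array weights and 10 without HFepa mice 1 and 6, and 0 to 6 with 1 mouse left out (3 without HFoleic mouse 1, 6 without HFepa mouse 1). Differences between members went from 5 past the threshold to 0 with the mean of all probes. Correlations between members went from 0 to 3 with the mean of all probes, 1 without the 4 arrays with testis markers (Fads2 with Fads3), and 0 to 1 with 1 mouse left out (1 without HFepa mouse 8 or Ref mouse 5). The cause was not tested.

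Over all genes, the 8159 called in HFoleic vs. Ref became 5396 with the replicate block and 4719 without the 4 arrays with testis markers. The 630 called in HFepa vs. Ref ranged from 0 without those 4 arrays (3953 at an unadjusted p under 0.05) to 1805 without HFepa mouse 3, and the 0 called in HFepa vs. HFoleic reached 4063 without HFepa mice 1 and 6. With the replicate number as a block, 2, 0 and 0 members and 14, 0 and 0 pathway genes were called in the 3 comparisons. Same-numbered mice correlated at -0.59 to 0.56, and the numbers were not used to pair mice. The paper states that the mice of the HFoleic and HFepa groups were matched for body weight. Whether the numbers mark matched mice cannot be read from these correlations. Elovl4 and Elovl2, near background, are the members whose values signal limits most.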
